A study of Mus musculus with 10 samples.

Results

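The genes examined here encode the subunits of the Polycomb and trithorax chromatin complexes: 41 genes of Polycomb repressive complex 2 (PRC2, 12 genes), Polycomb repressive complex 1 (PRC1, 18 genes), the MLL/COMPASS methyltransferases (9 genes) and the H3K27 demethylases (2 genes). They were chosen by gene symbol, as named subunits of these complexes and with earlier results of these data known, and all 41 matched 1 identifier each among the 52636 in the count tables. Expression was measured by RNA-seq in mouse E14 embryonic stem cells, a line derived from the blastocyst, after 24 h in medium without LIF and the 2i inhibitors and with retinoic acid, whose dose the labels put at 2 µM. WT cells (2 libraries) were compared with cells carrying the CBE-KO genotype, the loss of a CTCF binding element near HoxA (2 libraries). Both groups received retinoic acid, so no untreated level is given here. The labels do not say how many clones the CBE-KO cells come from, nor whether libraries of a group came from separate cultures beyond the term biological replicates. The p-values therefore measure the spread between these libraries.

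PRC2 places methyl groups on lysine 27 of histone H3 through its catalytic subunit Ezh1 or Ezh2, and this mark goes with silent developmental genes such as the Hox clusters. PRC1 attaches ubiquitin to histone H2A through Ring1 or Rnf2. Canonical PRC1 carries a Cbx protein that reads the PRC2 mark, and variant PRC1 carries Rybp or Yaf2 instead. The trithorax-group MLL/COMPASS complexes methylate lysine 4 of histone H3 at active or poised genes, and the Kdm6 demethylases remove the PRC2 mark. In embryonic stem cells, Polycomb and trithorax complexes share many promoters of developmental regulators, which are released from Polycomb during differentiation with retinoic acid.

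The libraries held 14108038 to 15632960 counts, and 16005 genes entered the test. At this depth 3 counts equal 0.192 to 0.213 CPM, the usual unit for a gene's share of its library, and the member levels given in it are TMM-scaled. The removed element is noncoding, so its loss cannot be read from gene counts. Markers of pluripotent cells were present in all libraries, 8 of 8 above 3 counts, with summed levels of 7489 to 7777 CPM in WT and 7400 to 7540 CPM in CBE-KO. The near-equal sums cover unequal members: 5 of the 8 passed as lower in CBE-KO (Pou5f1, Sox2, Zfp42, Klf4 and Utf1, the last with a log2 fold change of -1.67), 2 as higher (Nanog and Dppa5a) and 1 did not pass (Esrrb). Their median log2 fold change was -0.34, and Dppa5a alone held 3491 CPM of the WT mean and 4246 CPM of the CBE-KO mean. Summed markers of extraembryonic endoderm (6 of 6 detected) were 103 CPM in both WT libraries and 126 and 129 CPM in CBE-KO. Those of neural progenitors (4 of 4) were 23.5 and 23.8 CPM against 30.5 and 30.7, and those of mesoderm (4 of 5) 5.01 to 5.69 CPM throughout. Those of fibroblasts (3 of 5, with Col3a1 at 0 in WT) were 24.7 and 27.8 CPM against 40.1 and 42.4. Of these markers, 3 of endoderm, 3 neural, 1 of mesoderm and 2 of fibroblasts passed, each as higher (21.6% of all tested genes). The endoderm ones were Dab2 (0.77), Gata4 (0.72) and Lama1 (0.55), while Gata6 (0.01), Sox17 (0.20) and Foxa2 (-0.08) did not pass. Among fibroblast markers, Col1a1 (0.88) and Pdgfrb (0.83) passed and Thy1 (0.04) did not. The neural ones were Zfp521 (log2 fold change 3.59, from 4 counts per WT library), Pax6 (1.96, from 10 and 9 counts) and Sox1 (0.58). Nes (-0.31) did not pass. The mesoderm one was Kdr (1.49, from 6 counts per WT library), while T (-0.51), Tbx6 (0.22) and Hand1 (-0.55) did not pass. The part of other cell types in the member differences was not tested, and in such bulk samples fewer cells of a type and less RNA per cell cannot be told apart.

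Small, opposed shifts within PRC2 and PRC1, and few within MLL/COMPASS, were the main pattern. PRC2 core and PRC2.2 subunits fell, Kdm2b and Pcgf6 of variant PRC1 fell, and Ring1, Phc2, Yaf2 and Pcgf3 rose. Of 40 members tested, 23 passed the threshold (Benjamini-Hochberg adjusted p below 0.05, quasi-likelihood test of edgeR), 14 lower and 9 higher in CBE-KO. This is 57.5% of the tested members, beside 43.1% of all tested genes (21.5% lower and 21.6% higher). Genes of like count level were not compared, so the part of counting precision in the share was not tested. By complex, 10 of 12 PRC2 genes, 11 of 18 PRC1 genes, 1 of 8 tested MLL/COMPASS genes and 1 of 2 demethylases passed. None reached an absolute log2 fold change of 1, which 8.64% of all tested genes reached while passing. The members ran from -0.68 for Kdm2b to 0.66 for Cbx8, with a median of -0.05 beside 0.01 over all tested genes. Their median absolute log2 fold change was 0.21, beside 0.28 over all tested genes. The 2 groups of libraries did not overlap for 30 of the 40 members, 12 with CBE-KO above and 18 below, a share of 75.0% close to the 70.4% of all tested genes (36.4% above and 33.9% below). With libraries scaled by their totals alone, which raised the median of all genes to 0.11, 21 members passed (44.5% of all genes), 12 higher (29.8% of all genes) and 9 lower (14.7%). Under that scaling Mtf2 stood at 0.24, Phc1 at -0.13, Suz12 and Kdm6b at -0.11, Rbbp4 and Cbx2 at -0.10 and Cbx7 at -0.07, each over 1.5 times from its TMM value. DESeq2 called 17 members (28.6% of all genes), 4 higher (12.8%) and 13 lower (15.8%).

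**Figure D1:**
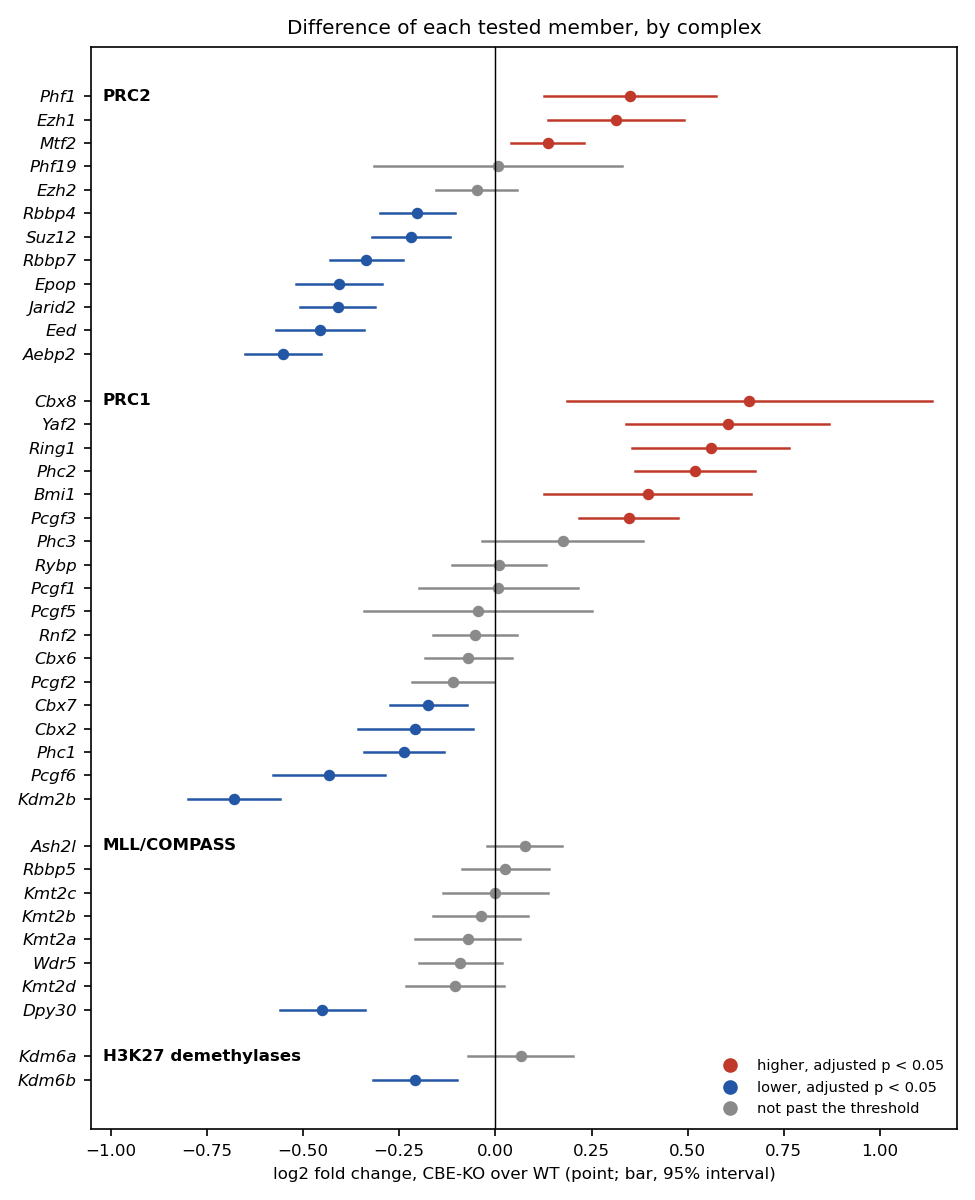
Log2 fold change of CBE-KO over WT for the 40 tested members (point) with its 95% interval (bar), grouped by complex. Red marks 9 members higher, blue 14 members lower and grey 17 members not past the threshold, and all but 2 of the blue and red points lie in PRC2 and PRC1.

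A second count was made of members that passed in the reported fit and, with the same sign, in each of 11 alternative fits: DESeq2, 3 other scalings, 2 other filters, a block for the replicate number and 4 fits that each left out 1 library. There were 13, or 32.5% of those tested, beside 24.0% of all tested genes (12.6% lower and 11.5% higher). Lower in every fit were Eed, Rbbp7, Epop, Jarid2 and Aebp2 of PRC2, Pcgf6, Phc1 and Kdm2b of PRC1, and Dpy30 of COMPASS. Higher in every fit were Ring1, Pcgf3, Phc2 and Yaf2, all of PRC1. The other 10 that passed lost the call in at least 1 fit, and none of the 23 changed sign in any.

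Promoter sequences are shown for the 2 falls and the 2 rises that were largest among passing members with a single start in the RefSeq table (GRCm38.p6), to let a reader see the regions upstream of genes that moved in opposite directions. Each runs 5′ to 3′ on the gene's strand, from 250 bases before the start to 50 after it, in lower case with motif matches in capitals. Eed (minus strand, chr7:89980927-89981226) and Pcgf6 (minus strand, chr19:47050857-47051156) fell. Ring1 (minus strand, chr17:34024631-34024930) and Cbx8 (minus strand, chr11:119040864-119041163) rose.
Eed: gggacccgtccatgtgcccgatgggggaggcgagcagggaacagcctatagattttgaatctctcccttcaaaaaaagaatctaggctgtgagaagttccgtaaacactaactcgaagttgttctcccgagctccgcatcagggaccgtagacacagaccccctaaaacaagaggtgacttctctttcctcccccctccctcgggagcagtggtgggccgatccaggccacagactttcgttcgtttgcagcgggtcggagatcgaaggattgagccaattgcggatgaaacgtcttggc
Pcgf6: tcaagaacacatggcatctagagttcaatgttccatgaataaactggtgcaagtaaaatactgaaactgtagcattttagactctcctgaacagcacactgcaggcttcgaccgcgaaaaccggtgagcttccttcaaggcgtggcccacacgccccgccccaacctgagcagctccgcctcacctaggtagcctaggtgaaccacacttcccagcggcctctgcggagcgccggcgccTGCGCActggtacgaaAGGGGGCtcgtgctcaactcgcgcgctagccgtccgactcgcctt
Ring1: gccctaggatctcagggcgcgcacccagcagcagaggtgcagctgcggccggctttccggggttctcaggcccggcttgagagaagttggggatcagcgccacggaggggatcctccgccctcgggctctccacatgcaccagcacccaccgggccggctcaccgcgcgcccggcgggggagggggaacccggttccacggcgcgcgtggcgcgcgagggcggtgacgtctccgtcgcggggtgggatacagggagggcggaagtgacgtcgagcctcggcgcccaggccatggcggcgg
Cbx8: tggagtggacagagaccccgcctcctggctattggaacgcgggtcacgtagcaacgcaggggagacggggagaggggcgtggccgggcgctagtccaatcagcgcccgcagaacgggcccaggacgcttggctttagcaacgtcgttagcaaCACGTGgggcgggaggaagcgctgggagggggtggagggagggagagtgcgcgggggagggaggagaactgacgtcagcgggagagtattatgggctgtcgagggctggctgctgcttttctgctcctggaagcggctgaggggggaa
The capitals in Pcgf6 mark TGCGCA, the half-site of NRF1, and AGGGGGC, the core letters of many CTCF sites, and those in Cbx8 mark CACGTG, the E-box. Neither Eed nor Ring1 holds a match to any of the 6 motifs searched.

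All 4 sequences are rich in CpG, as were the members in general. The table held 49 promoters for 33 members, and their median observed-to-expected CpG ratio was 0.831, beside 0.384 over all 32851 promoters of the same length. It was 0.906 for promoters of members that fell, 0.737 for those that rose and 0.839 for those that did not pass. Searched on both strands, TGCGCA occurred in 20.4% of member promoters and 7.76% of all promoters, CACGTG in 16.3% and 7.15%, and AGGGGGC in 18.4% and 10.6%. TGCGCA and CACGTG themselves hold a CpG, and AGGGGGC is rich in G. Member promoters had a median GC content of 64.3%, beside 52.7% over all promoters. No promoters of like CpG ratio or GC content were compared, so the part of base composition in these shares, that of AGGGGGC included, was not tested. Promoters of 1 gene can share letters: the 10 with TGCGCA and the 9 with AGGGGGC came from 8 genes each, through overlapping starts of Dpy30 and Kdm2b. Counted by gene, a match in any of its promoters was enough, and the groups differed in promoters searched. These were 20 for the 11 fallen members, 11 for the 8 risen ones and 15 for the 13 that did not pass. No share by gene was taken over all genes, so a link of letters with direction was not tested. The AGGGGGC letters lay at 5 of the 11 fallen members with a promoter (Aebp2, Kdm2b, Cbx7, Rbbp4 and Pcgf6), at 2 of 8 risen ones (Phc2 and Bmi1) and at 1 of 13 that did not pass (Pcgf5). TGCGCA lay at 4 of the 11, 3 of the 8 and 1 of the 13. The E-box lay at 1 of the 11 (Rbbp4), 3 of the 8 (Cbx8, Phc2 and Bmi1) and 4 of the 13 (Cbx6, Kdm6a, Pcgf2 and Phc3). AGGTCA, the half-site of nuclear receptors including those for retinoic acid, lay at 6 members (12.2% of promoters, against 16.3% of all). The form TTTNNCGC of E2F sites lay at Ezh2, Suz12 and Phf19 (6.12% against 5.17%), and CCGGAAG, the ETS form, at Phc2 (2.04% against 8.86%). Both of these forms hold a CpG as well. A match is a description of letters, not a measured site, and the matches may overlap one another.

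Neither catalytic subunit of PRC2 passed as lower, whereas the 4 core genes did, and no test compared them. Ezh2, the main H3K27 methyltransferase of dividing embryonic cells, had 156 and 148 CPM in WT and 149 and 146 CPM in CBE-KO. These levels overlap, and the log2 fold change of -0.05 (95% interval -0.15 to 0.06; edgeR adjusted p = 0.468) did not pass and became 0.06 with library totals alone. Ezh1, the paralog that predominates in resting and differentiated cells, had 28.4 and 32.0 CPM in WT and 37.3 and 37.7 CPM in CBE-KO. Both CBE-KO libraries lay above both WT libraries, and Ezh1 rose to 1.24 times the WT level (log2 fold change 0.31 ± 0.08, SE; edgeR adjusted p = 0.00559). Its adjusted p ran from 0.000375 to 0.0893 over the alternatives and missed the threshold in DESeq2 (0.0639) and without WT replicate 1 (0.0893). Within a library, the count of Ezh2 was 5.51 and 4.64 times that of Ezh1 in WT and 3.98 and 3.88 times in CBE-KO, a ratio of counts that is not corrected for transcript length.

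The 4 core genes all fell. Eed, the subunit that binds methylated lysine 27 and stimulates the enzyme, had 219 and 202 CPM in WT and 159 and 148 CPM in CBE-KO. Eed was the core gene with the largest difference, at 0.729 of the WT level (log2 fold change -0.46 ± 0.05, SE; edgeR adjusted p = 3.24e-06). Rbbp7, a histone-binding WD40 protein on the X chromosome, had 435 and 431 CPM in WT and 341 and 346 CPM in CBE-KO (log2 fold change -0.34 ± 0.05, SE; edgeR adjusted p = 1.30e-05). Suz12, the scaffold of the complex, fell from 273 and 262 CPM to 234 and 227 CPM (log2 fold change -0.22 ± 0.05, SE; edgeR adjusted p = 0.00129). Rbbp4, the paralog of Rbbp7, fell from 477 and 471 CPM to 403 and 420 CPM (log2 fold change -0.20 ± 0.05, SE; edgeR adjusted p = 0.00172). In none of the 4 did the groups overlap, as was so for 70.4% of all tested genes. Suz12 and Rbbp4 missed the threshold with library totals alone, at adjusted p of 0.0608 and 0.0893, the highest of ranges that began at 1.86e-05 and 0.000102. Rbbp4 and Rbbp7 also serve in other histone-modifying complexes, and their loci overlap Sync and Txlng in the RefSeq table, so reads shared with those genes are uncertain.

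The accessory subunits that define PRC2.2 fell in both cases. Jarid2, which helps recruit PRC2 and links it to ubiquitinated H2A, had 600 and 631 CPM in WT and 467 and 458 CPM in CBE-KO. Aebp2, a zinc-finger protein that stabilises the complex, had 270 and 268 CPM in WT and 185 and 181 CPM in CBE-KO. The log2 fold changes were -0.41 ± 0.05 for Jarid2 (SE; edgeR adjusted p = 1.75e-06) and -0.55 ± 0.05 for Aebp2 (SE; edgeR adjusted p = 5.97e-08). Aebp2 thus stood at 0.682 of its WT level, the lowest fraction among PRC2 genes.

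The accessory subunits of the alternative form, PRC2.1, did not move together. Epop, which joins PRC2 to elongin and is typical of pluripotent cells, fell from 796 and 773 CPM to 557 and 625 CPM (log2 fold change -0.41 ± 0.05, SE; edgeR adjusted p = 8.12e-06). Among the 3 Polycomb-like proteins, which bind CpG-rich DNA, Mtf2 had 447 and 443 CPM in WT and 496 and 481 CPM in CBE-KO. Mtf2 rose by 0.14 ± 0.05 on the log2 scale (SE; edgeR adjusted p = 0.0225), with adjusted p from 0.000187 to 0.222 over the alternatives. The call was lost in DESeq2 (0.0581) and without CBE-KO replicate 1 (0.222) or CBE-KO replicate 2 (0.0688). Phf1 had 20.5 and 17.6 CPM in WT and 25.0 and 23.5 CPM in CBE-KO, a rise of 0.35 ± 0.11 (SE; edgeR adjusted p = 0.0126). That call was lost in DESeq2 (adjusted p = 0.101) and without WT replicate 2 (0.153) or CBE-KO replicate 1 (0.0536), within a range from 0.00129 to 0.153. Phf19 had 8.88 and 9.58 CPM against 9.35 and 9.19 CPM, and its 95% interval ran from -0.32 to 0.33. Epop therefore went the opposite way to Mtf2: within a library, Epop had 1.78 and 1.74 times the counts of Mtf2 in WT and 1.12 and 1.30 times in CBE-KO, again without correction for length.

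**Figure D2:**
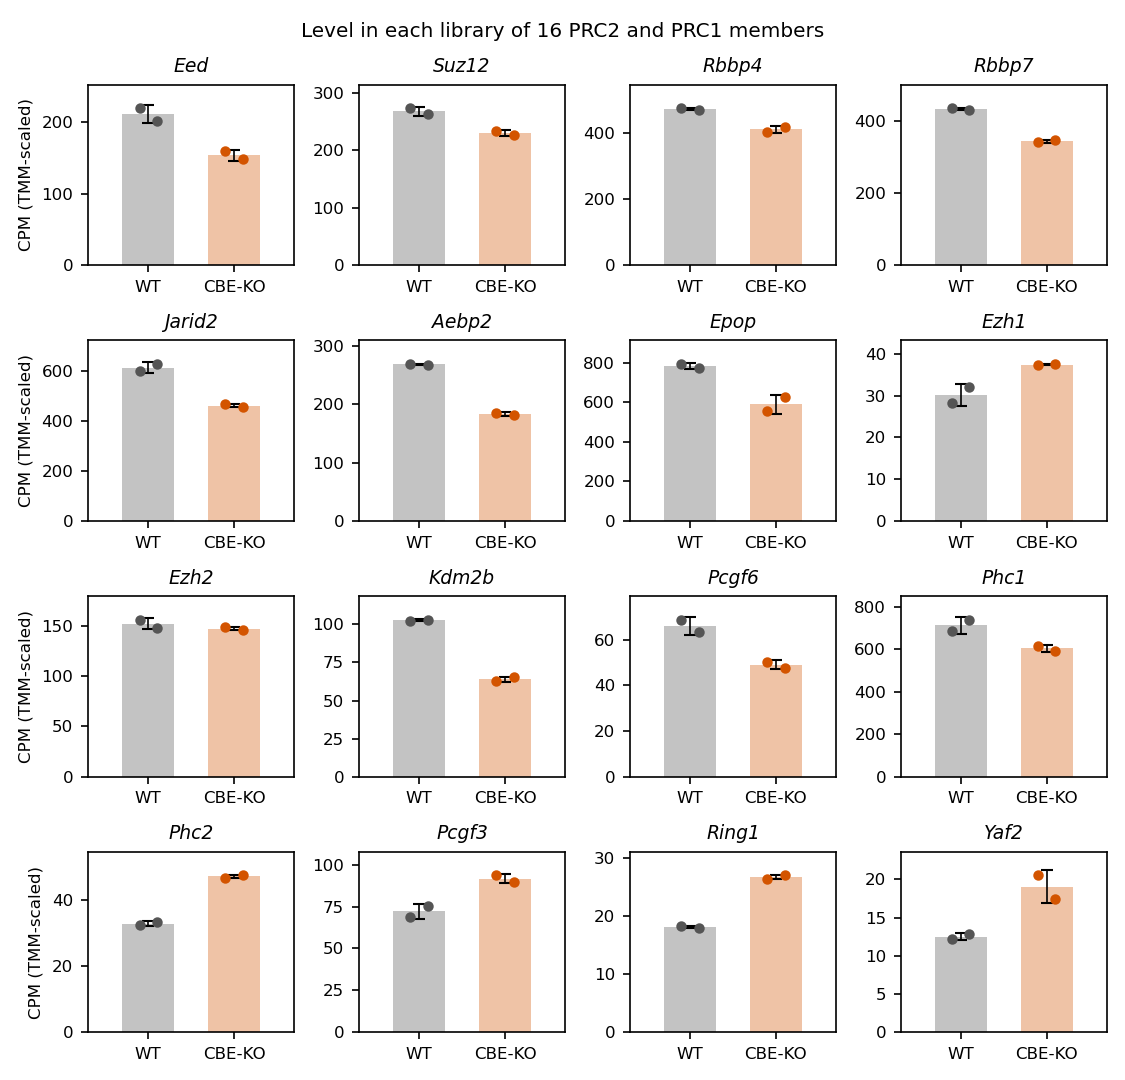
TMM-scaled CPM of 16 PRC2 and PRC1 members in each library (points, replicate 1 at the left), with the mean (bar) and SD over 2 libraries (line); each panel has its own axis from 0. Ezh2 overlaps between the groups, and each of the other 15 genes has both CBE-KO libraries on one side of both WT libraries. The 15 were picked from members that passed, and 70.4% of all tested genes are likewise free of overlap.

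The 2 ubiquitin ligases of PRC1 are paralogs, and the test called a change in Ring1 and not in Rnf2. Rnf2, the main ligase there, had 118 and 119 CPM in WT and 118 and 111 CPM in CBE-KO. The difference was -0.05 on the log2 scale (95% interval -0.16 to 0.06; edgeR adjusted p = 0.444) and turned to 0.05 with library totals. Ring1 had 18.2 and 17.9 CPM in WT and 26.4 and 26.96 CPM in CBE-KO, with little spread within a group. Ring1 rose to 1.47 times the WT level (log2 fold change 0.56 ± 0.10, SE; edgeR adjusted p = 0.000159). The count of Rnf2 was 6.48 and 6.64 times that of Ring1 within the WT libraries and 4.46 and 4.12 times within the CBE-KO libraries.

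The 6 Pcgf proteins pair with the ligase and decide which form of PRC1 is built. Pcgf6, the subunit of the PRC1.6 form that works with Mga, Max and L3mbtl2 at germline genes, had 68.9 and 63.4 CPM in WT and 50.4 and 47.6 CPM in CBE-KO. Pcgf6 fell to 0.741 of the WT level (log2 fold change -0.43 ± 0.07, SE; edgeR adjusted p = 7.01e-05). Pcgf3, which with its relative Pcgf5 supports broad ubiquitination of H2A, had 68.8 and 75.4 CPM in WT and 93.6 and 89.6 CPM in CBE-KO. Pcgf3 rose by 0.35 ± 0.06 (SE; edgeR adjusted p = 0.000190), while Pcgf5 had 12.4 and 11.3 CPM against 12.1 and 10.8 CPM, overlapping groups and an interval from -0.34 to 0.25. Among the Pcgf proteins of canonical PRC1, Bmi1 had 12.8 and 12.2 CPM in WT and 15.5 and 17.4 CPM in CBE-KO. Bmi1 rose by 0.40 ± 0.13 (SE; edgeR adjusted p = 0.0182), and this call was lost in DESeq2 (adjusted p = 0.119) and without WT replicate 2 (0.0670) or CBE-KO replicate 2 (0.129), within a range from 0.00300 to 0.129. Pcgf2, its close paralog, had 114 and 113 CPM in WT and 105 and 106 CPM in CBE-KO, and its log2 fold change of -0.11 did not pass (edgeR adjusted p = 0.0933). Pcgf1, which pairs with Kdm2b in PRC1.1, had 21.6 to 22.4 CPM in all 4 libraries (interval of the difference -0.20 to 0.21).

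Variant PRC1 gave the largest fall of the set. Kdm2b, a CpG-binding protein that brings PRC1.1 to unmethylated CpG islands, had 102 and 103 CPM in WT and 63.0 and 65.3 CPM in CBE-KO. Kdm2b stood at 0.624 of the WT level (log2 fold change -0.68 ± 0.06, SE; edgeR adjusted p = 4.39e-08), at 6.33% from the bottom of the ranking of all tested genes. Its overlap with the noncoding gene Gm33118 leaves reads shared between them uncertain. The same limit holds for Phf1, Cbx2, Phc2, Yaf2 and Kdm6b, passing members whose loci overlap a gene not listed as protein-coding. Rybp and Yaf2 take the same place in variant PRC1 and stimulate the ligase. Rybp had 106 and 115 CPM in WT and 116 and 107 CPM in CBE-KO, which overlap. Yaf2 rose from 12.2 and 12.9 CPM to 20.5 and 17.5 CPM (log2 fold change 0.60 ± 0.13, SE; edgeR adjusted p = 0.000827). The count of Rybp fell relative to that of Yaf2, from 8.69 and 8.95 times to 5.64 and 6.10 times.

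The Cbx proteins of canonical PRC1 bind the PRC2 mark, and Cbx7 is the one typical of pluripotent cells, whereas Cbx2 and Cbx8 are usual in differentiating cells. Cbx7 had 217 and 223 CPM in WT and 197 and 192 CPM in CBE-KO. It fell by 0.17 on the log2 scale (edgeR adjusted p = 0.00682), with adjusted p from 0.00181 to 0.266 over the alternatives. The call was lost with library totals (adjusted p = 0.266) and without CBE-KO replicate 2 (adjusted p = 0.0749), and the locus overlaps Apobec3 in the RefSeq table. The counts of Cbx8 were 44 and 59 in WT and 90 and 87 in CBE-KO, or 3.01 and 4.28 CPM against 5.54 and 5.97 CPM. At 0.66 ± 0.22 (SE; edgeR adjusted p = 0.0247) its log2 fold change was the highest of all members, and the low counts make it the least precise. The Cbx8 call was lost in DESeq2 (adjusted p = 0.142) and without WT replicate 1 (0.200) or CBE-KO replicate 2 (0.0909), within a range from 0.00323 to 0.200. Without WT replicate 1 the Cbx8 log2 fold change was 0.42, and without WT replicate 2 it was 0.93. Cbx2 had 54.0 and 56.0 CPM in WT and 45.9 and 49.4 CPM in CBE-KO, a fall of 0.21 on the log2 scale (edgeR adjusted p = 0.0243). Cbx2 lost the call in 5 of the 11 fits, namely DESeq2 (adjusted p = 0.114), upper-quartile scaling (0.0570), library totals (0.260) and the fits without WT replicate 2 (0.0582) or CBE-KO replicate 1 (0.226), in a range from 0.0161. Cbx6 overlaps Npcd in the RefSeq table and did not pass (interval -0.18 to 0.04). Cbx7, Cbx2 and Cbx8 thus did not move as 1 group, since Cbx2 was lower and Cbx8 higher.

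The 3 Polyhomeotic proteins polymerise through a SAM domain and join PRC1 complexes to one another. Phc1, the form prominent in embryonic stem cells, had 685 and 740 CPM in WT and 617 and 592 CPM in CBE-KO. Phc2 had 32.5 and 33.5 CPM in WT and 46.9 and 47.6 CPM in CBE-KO. Phc1 fell by 0.24 on the log2 scale (edgeR adjusted p = 0.000768), and Phc2 rose to 1.43 times its WT level (log2 fold change 0.52 ± 0.07, SE; edgeR adjusted p = 2.40e-05). Phc3 had 19.8 and 20.3 CPM in WT and 22.3 and 23.0 CPM in CBE-KO, with no overlap, and did not pass (log2 fold change 0.17, edgeR adjusted p = 0.172) except with library totals (0.0308), in a fit that shifts all genes upward. Relative to Phc1, the count of Phc2 went from 0.0474 and 0.0453 to 0.0761 and 0.0804.

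**Figure D3:**
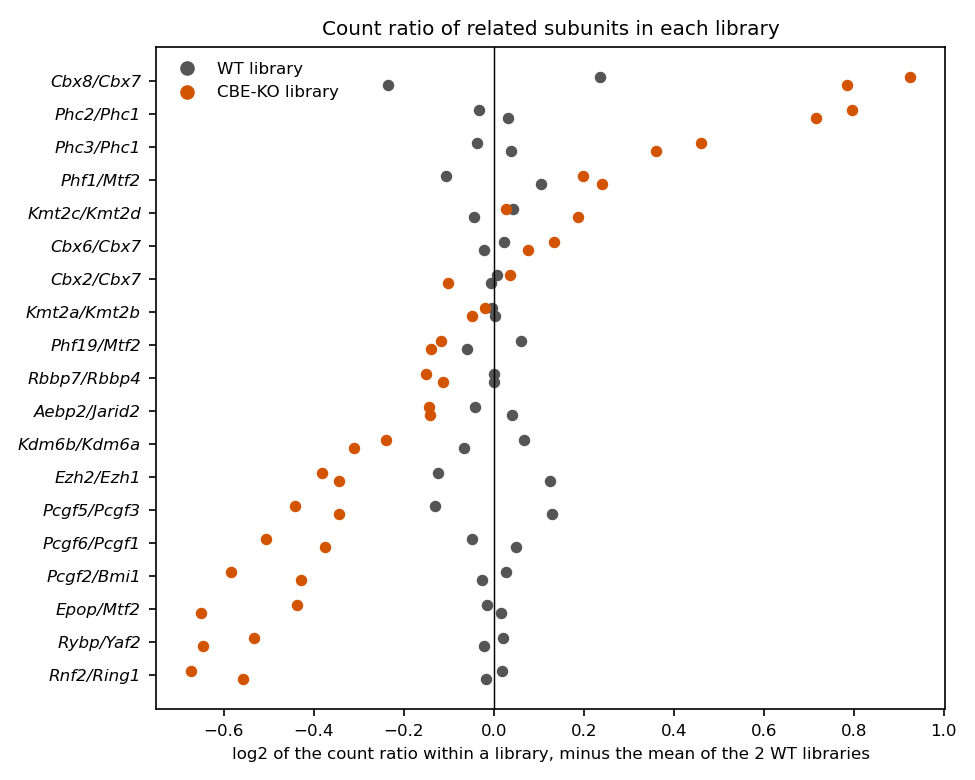
Log2 of the count ratio of 2 related subunits within each library, minus the mean of the 2 WT libraries (grey, WT; orange, CBE-KO). The ratios of Rnf2 to Ring1, Rybp to Yaf2 and Epop to Mtf2 lie lowest in CBE-KO and those of Cbx8 and Phc2 to Cbx7 and Phc1 highest, while the ratio of Kmt2a to Kmt2b shows a shift of -0.03.

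A ratio within a library does not depend on how libraries are scaled. The 19 pairs drawn ran from 0.653 times the WT ratio in CBE-KO for Rnf2 to Ring1 to 1.81 times for Cbx8 to Cbx7. The groups overlapped for Cbx2 to Cbx7 (0.977 times) and Kmt2c to Kmt2d (1.08 times), and Kmt2a to Kmt2b stood at 0.976 times. The pairs were picked with the members' values known, and an exact permutation test of 2 libraries against 2 cannot give a p below 0.333, so no test is given.

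The MLL/COMPASS genes differed little. None of the 4 methyltransferase genes passed. Kmt2a, which acts at Hox genes, had 80.7 and 92.4 CPM in WT and 81.5 and 83.1 CPM in CBE-KO. Kmt2b, the enzyme of bivalent promoters, had 165 and 189 CPM against 172 and 172 CPM. For all 4 the WT libraries lay apart from one another and the CBE-KO values fell within or across their range. Kmt2c had 86.0 and 99.7 CPM in WT and 92.4 and 93.1 CPM in CBE-KO, and Kmt2d, the other enhancer methyltransferase, 173 and 189 CPM in WT and 159 and 179 CPM in CBE-KO. The 95% intervals of the log2 fold change were -0.21 to 0.06 for Kmt2a, -0.16 to 0.09 for Kmt2b, -0.14 to 0.14 for Kmt2c and -0.23 to 0.02 for Kmt2d. Differences within those bounds cannot be told from none at 2 libraries per group. Without WT replicate 1, Kmt2a (-0.17, adjusted p = 0.0307), Kmt2b (-0.14, 0.0398) and Kmt2d (-0.17, 0.00915) passed as lower, and Kmt2d also passed without CBE-KO replicate 2 (-0.19, 0.0274). The highest adjusted p over the fits were 0.832 for Kmt2a, 0.968 for Kmt2b and 0.99 for Kmt2d.

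The shared core of these complexes is made of Wdr5, Ash2l, Rbbp5 and Dpy30. Dpy30, a small subunit that raises methyltransferase activity, had 140 and 141 CPM in WT and 99.4 and 106 CPM in CBE-KO. Dpy30 alone passed, at 0.732 of the WT level (log2 fold change -0.45 ± 0.05, SE; edgeR adjusted p = 2.26e-06). The other 3 had log2 fold changes of -0.09 (Wdr5), 0.08 (Ash2l) and 0.03 (Rbbp5), with 95% intervals that together ran from -0.20 to 0.17. Wdr5 passed as lower without WT replicate 2 (-0.15, adjusted p = 0.0231), and Ash2l as higher with library totals (0.18, adjusted p = 0.00310). Men1, the menin gene that tethers Kmt2a and Kmt2b, is listed at 0 counts in all 4 libraries. Since Men1 is active in nearly every cell, an exact 0 may reflect how reads were assigned, which was not tested, and no level is given for it.

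Of the H3K27 demethylases, Kdm6b fell and Kdm6a did not pass. Kdm6b, an inducible enzyme linked to Hox activation, had 161 and 171 CPM in WT and 140 and 147 CPM in CBE-KO (log2 fold change -0.21 ± 0.05, SE; edgeR adjusted p = 0.00318). The Kdm6b call was lost with library totals (adjusted p = 0.109) and without CBE-KO replicate 1 (0.0579), in a range from 5.34e-05. Kdm6a, an X-linked subunit of the Kmt2c and Kmt2d complexes, had 58.0 and 56.0 CPM in WT and 59.6 and 59.7 CPM in CBE-KO (log2 fold change 0.07, interval -0.07 to 0.20). It passed as higher with library totals (0.17, adjusted p = 0.0419). Uty, its relative on the Y chromosome, was at 2 and 0 counts in the WT libraries and at 293 and 267 in those of CBE-KO, at least 85.9-fold higher when each WT library is set to 3 counts. Kdm5d, another Y-linked demethylase, had 1 and 0 counts against 4 and 7 and was not tested. The WT and CBE-KO libraries thus differed in expression from the Y chromosome as well as in the labelled genotype, and for every member these 2 differences cannot be told apart.

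**Figure D4:**
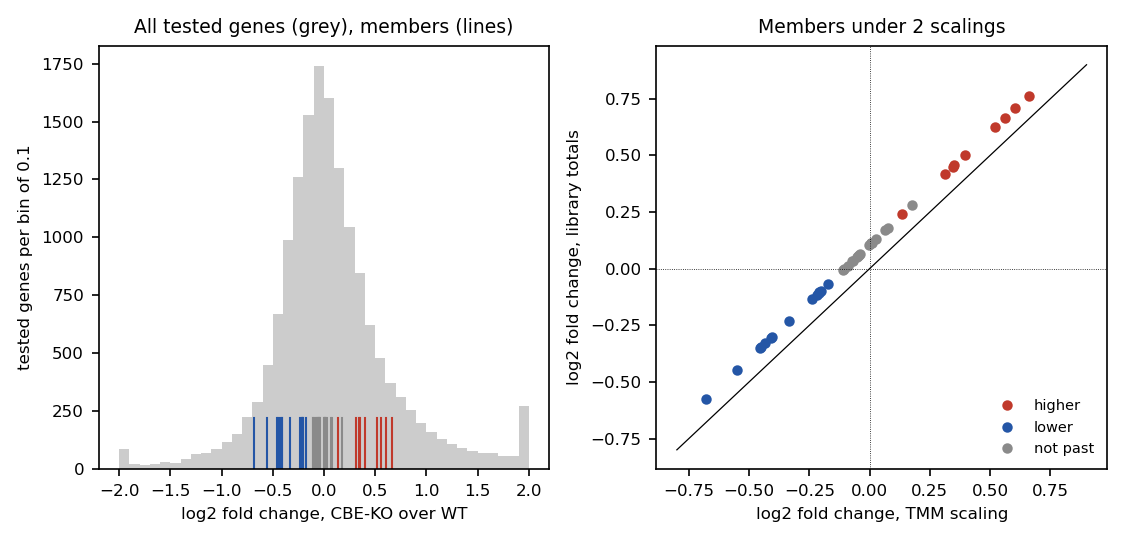
Left, log2 fold changes of all 16005 tested genes (grey, bins of 0.1, values beyond -2 or 2 in the end bins) with the 40 members as lines; right, each member's log2 fold change with TMM scaling against library totals alone. The members lie between -0.68 and 0.66, inside the main body of the distribution, and library totals move each point up by about 0.104, as they do the median of all genes.

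Partners outside the 41 genes were taken from lists of 64 related genes, of which 60 were tested and 31 passed, 14 higher and 17 lower (51.7%, beside 43.1% of all tested genes). Among other PRC2 partners, 1 of 4 rose and 1 fell. Ezhip, an inhibitor of the PRC2 catalytic subunit and best known in germ cells, was at 50 and 51 counts in the WT libraries and at 233 and 176 in those of CBE-KO, or 3.42 and 3.70 CPM against 14.3 and 12.1 CPM. Both CBE-KO libraries stood far above WT, and Ezhip rose 3.71-fold (log2 fold change 1.89 ± 0.18, SE; edgeR adjusted p = 2.00e-07), a call kept in all 11 alternative fits. Ezhip appears in the gene name table under its earlier symbol AU022751. Eloc, an elongin subunit that binds Epop, fell by 0.37 on the log2 scale (edgeR adjusted p = 0.000116).

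Of 19 partners of variant PRC1, 5 rose and 5 fell, or 52.6% beside 43.1% of all tested genes (21.6% higher and 21.5% lower). L3mbtl2, which acts with Pcgf6, fell from 115 ± 1.12 to 79.2 ± 3.08 CPM (SD, n = 2 each, log2 fold change -0.54, edgeR adjusted p = 5.06e-07). The other PRC1.6 partners named above did not fall alike, since Mga had a log2 fold change of 0.06 and did not pass. Max fell by 0.16, a call lost in DESeq2, with upper-quartile scaling, with library totals alone and without CBE-KO replicate 1. Bcor and Bcorl1, scaffolds of PRC1.1, rose by log2 fold changes of 0.38 and 0.59, opposite to Kdm2b of the same form. Usp7 (-0.30) and Skp1 (-0.19) of the same partner list fell, as Kdm2b did. The Bcor call was lost without WT replicate 1, at 0.28, and the Skp1 call with library totals alone, at -0.08. Of 9 tested genes on a list of SAM and MBT domain proteins that also holds Yy1, which has neither domain, 3 rose and 3 fell (66.7%). Those that fell were Sfmbt2, Samd1 (-0.15) and Yy1 (-0.21). The Samd1 and Yy1 calls were lost with library totals alone, at -0.05 and -0.11, and that of Samd1 also in DESeq2. The largest changes were those of Scml2 (1.60), L3mbtl3 (0.96) and Sfmbt2 (-0.89). With 74 and 123 counts in WT, L3mbtl3 moved to 0.60 without WT replicate 1 and to 1.41 without WT replicate 2.

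In PR-DUB, the complex that removes ubiquitin from H2A, 2 of 10 genes rose and 3 fell. These shares lie near the 21.6% higher and 21.5% lower of all tested genes. Asxl3 rose from 15 and 36 counts to 101 and 89 counts (log2 fold change 1.77, edgeR adjusted p = 0.000125), and Foxk2 rose by 0.44. The 3 that fell were Foxk1 (-0.28), Mbd6 (-0.20) and Ogt (-0.17), and each lost the call with library totals alone. The Asxl3 value was 1.23 without WT replicate 1 and 2.57 without WT replicate 2. Bap1, the enzyme, had a log2 fold change of -0.05 and did not pass (edgeR adjusted p = 0.475). Of 13 tested genes for other COMPASS and trithorax proteins, 2 rose and 5 fell, or 53.8% beside 43.1% of all tested genes. Setd1b, a methyltransferase of the SET1 branch of COMPASS, fell from 78.4 ± 9.12 to 43.7 ± 0.480 CPM (SD, n = 2 each; log2 fold change -0.84, edgeR adjusted p = 1.25e-07), whereas its paralog Setd1a (-0.04) did not pass. Among 5 tested relatives of the demethylases, only Uty passed, and Kdm5a, Kdm5b, Kdm5c and Kdm1a had log2 fold changes from -0.05 to 0.03.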

How the data were processed

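RNA-seq counts of 4 libraries were analysed, 2 WT and 2 CBE-KO, grouped and numbered from the sample titles. Capture-C data (6 samples) were not used here. The deposited values are raw whole-number counts per Ensembl gene, 1 table per library, as the values show. Per the submitters' processing notes the series used build mm10 and HISAT2 2.1.0, HTSeq 0.9.1, DESeq2 1.18.1 and Bowtie2 2.3.1, with no role given. Strand use and the treatment of reads shared by copies or overlapping genes are not given in the sources used here.

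Symbols came from a gene name table, which matched 52403 of 52636 identifiers, and coordinates and promoters from RefSeq (GRCm38.p6). All 16005 genes left by edgeR's filterByExpr were fitted with edgeR 4.0.16 (R 4.3.3; TMM scaling, glmQLFit, glmQLFTest, no covariate, two-sided, Benjamini-Hochberg over all of them, threshold 0.05). CPM are TMM-scaled. Each standard error (SE) is the absolute log2 fold change divided by the square root of the quasi-likelihood F statistic. Intervals are 95% intervals from this SE and the fit's total degrees of freedom. The alternatives were DESeq2 1.42.0, other scalings, filters and thresholds, a replicate block and leaving out each library. Floors and counts cover counting error only.

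The members and lists were chosen with earlier results of these data known. All 41 members are named, with values in every library for those that passed and for the enzymes. From each related list up to 3 of the largest changes that passed were eligible, plus Uty and Kdm5d. Bap1, Mbd6, Ogt, Usp7, Skp1, Max, Mga, Samd1, Yy1, Setd1a, Kdm1a, Kdm5a, Kdm5b and Kdm5c were chosen after values were seen. So were the motifs, the printed promoters and the ratio pairs.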

Additional observations from a re-analysis of the deposited data

How the results depend on the processing

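All 23 members that passed kept their sign in the 11 alternative fits, and 13 kept their call in all of them. The number that passed, 23, was 17 in DESeq2 (4 higher, 13 lower), 21 to 23 under other scalings and filters and 18 at an adjusted p under 0.01. Where the log2 fold change also had to reach 1 in size, it was 0 for all members, 0 for PRC2, 0 for PRC1 and 0 for MLL/COMPASS with the demethylases, where edgeR called 23, 10, 11 and 2. Over all genes the count of 6895 became 4577 in DESeq2 and 1383 with that minimum. With library totals 7 of 10 passing PRC1 genes and 2 of 3 passing MLL/COMPASS and demethylase genes were higher, against 6 of 11 and 0 of 2 with TMM. Leaving out 1 library gave 19 to 24 members, 8 to 9 in PRC2, 8 to 10 in PRC1, 1 (without CBE-KO replicate 1) to 5 (without WT replicate 1) in MLL/COMPASS with the demethylases, and 5492 to 6420 genes in all. Such fits assume that the lone library varies like the other group, and they moderated the gene-wise spread nearly completely, so their p-values can be too small. The fit with no low-count filter moderated the gene-wise spread completely as well. The low ends of adjusted p ranges that came from any of these fits share this limit.

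Signs changed only among the 17 tested members that did not pass, in 11 of them. With library totals the log2 fold changes became 0.056 for Ezh2, 0.0515 for Rnf2, 0.0603 for Pcgf5, 0.0335 for Cbx6, 0.0318 for Kmt2a, 0.0657 for Kmt2b, 0.103 for Kmt2c and 0.0134 for Wdr5, beside a rise of 0.104 in the median of all genes. DESeq2 gave -0.0046 for Phf19, -0.0037 for Pcgf1 and -0.0026 for Rybp, and median-of-ratios scaling -0.0042, -0.0040 and -0.0022. Kmt2c was 0.0338 with upper-quartile scaling, 0.0029 with a mean of at least 1 CPM and 0.0024 with the replicate block. Leaving out 1 library gave ranges of -0.169 to 0.0225 for Kmt2a, -0.138 to 0.0604 for Kmt2b, -0.107 to 0.104 for Kmt2c, -0.0487 to 0.0567 for Phf19, -0.0183 to 0.0329 for Pcgf1, -0.129 to 0.0311 for Pcgf5 and -0.0527 to 0.0656 for Rybp. The cause was not tested. The replicate block changed no member's call. Same-numbered libraries share only a number, and their deviations from the group means had a correlation of 0.0370. Depth limits Cbx8 most, at 44 to 90 counts per library.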
